A study of Mus musculus with 6 samples.

Results

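The mature 5p arms of the let-7 family were examined in small RNA sequencing of small extracellular vesicles (sEVs) released by mouse islets. The 8 arms, mmu-let-7a-5p to mmu-let-7g-5p and mmu-let-7i-5p, were taken by name from a table of 718 small RNA entries, of which 479 carry a miRBase name and 239 do not. The list was chosen by name after the reads per 1000000 counted reads (RPM) of these 6 libraries, and the difference in RPM between the diets, had been seen. The diet contrast of the 8 arms is therefore given as a description: no p-value is printed for them, and where limma calls of the arms are counted, nothing is read from them. Libraries were made from vesicles of WT C57/B6J mice on a normal chow diet (NCD, normal islet-derived sEVs, nid-sEVs, n = 3) or on a high-fat diet (HFD, adaptive islet-derived sEVs, aid-sEVs, n = 3), and the contrast asks how the miRNA cargo of islet sEVs changed in diet-induced obesity. All mice were without a transgene or deletion as far as the labels say, and the labels give no age or time on diet. The study's text describes the HFD donors as mice in the compensatory phase of high-fat feeding. Vesicles came from whole isolated islets in culture, so any cell type of the islet preparation may have released them. The study's methods speak of biological replicates for its experiments in general, but how many mice or cultures stand behind a library is not stated, so part of the spread between libraries may be technical.

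let-7 was among the first miRNAs described and is highly conserved across animals. Mature let-7 pairs through its seed with sites in target mRNAs and represses them, and the RNA-binding protein LIN28 blocks the processing of its precursors. In metabolic tissue let-7 is known for repressing members of the insulin and IGF signalling pathway, among them the insulin receptor and IGF1R.

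The 8 mature sequences are shown because every one has the same seed, and the arms differ only outside it. They are written 5′ to 3′ from RefSeq (GRCm38.p6), with the seed, bases 2 to 8, in capitals.
let-7a-5p: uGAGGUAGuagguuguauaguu
let-7b-5p: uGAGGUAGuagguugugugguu
let-7c-5p: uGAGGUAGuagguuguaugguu
let-7d-5p: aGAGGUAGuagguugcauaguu
let-7e-5p: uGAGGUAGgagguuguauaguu
let-7f-5p: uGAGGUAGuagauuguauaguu
let-7g-5p: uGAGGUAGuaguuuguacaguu
let-7i-5p: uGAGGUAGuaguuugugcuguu
All 8 are 22 bases long. How evenly the library preparation captured arms of different sequence was not tested, so levels of different arms are compared as listed. Counted from the 5′ end, with the base of let-7a-5p first, let-7c-5p differs by A19G, let-7e-5p by U9G and let-7f-5p by G12A. The other arms carry more changes, with A17G and A19G in let-7b-5p, U1A and U16C in let-7d-5p, G12U and U18C in let-7g-5p, and G12U, A17G, U18C and A19U in let-7i-5p. Of the 28 possible pairs of arms, 4 differ by 1 base and 8 by 2 bases. How many mismatches were allowed when reads were given to a miRNA is not given in the sources used here, so the split of reads between arms that differ by 1 base is uncertain.

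The 8 arms are encoded by 11 hairpins (GRCm38, GENCODE M21), and let-7a-5p, let-7c-5p and let-7f-5p each come from 2 of them. Mirlet7d (chr13:48536012-48536114), Mirlet7f-1 (chr13:48537829-48537917) and Mirlet7a-1 (chr13:48538179-48538272) lie together on the minus strand in an exon of the lincRNA 6720427I07Rik. Mirlet7c-2 (chr15:85706603-85706697) and Mirlet7b (chr15:85707319-85707403) lie 621 bases apart on the plus strand in an exon of Lncppara. Mirlet7c-1 (chr16:77599657-77599750, plus strand) is in an intron of Mir99ahg, 656 bases after Mir99a. Mirlet7a-2 (chr9:41536716-41536811, plus strand) is in an intron of 3110039I08Rik, between Mir100 and Mir125b-1. Mirlet7e (chr17:17830352-17830444, plus strand) is in an intron of Spaca6, 367 bases before Mir125a. Mirlet7f-2 (chrX:151912346-151912428, plus strand) is in an intron of Huwe1, beside Mir98. Mirlet7g (chr9:106178840-106178927, plus strand) is in an intron of Wdr82, and Mirlet7i (chr10:122985640-122985724, minus strand) is in an exon of the pseudogene D630033A02Rik. The mature arm does not show which of its hairpins a read came from.

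The totals behind the RPM ranged from 50534 to 129152 reads in nid-sEVs and from 122266 to 519315 in aid-sEVs. Nearly all of these reads fell on the listed entries, 50489 of 50534 in nid-sEV 3 and 518906 of 519315 in aid-sEV 1. Shares are therefore of reads counted for the entries, and the number of reads sequenced was not used here. miR-375-3p, the defining miRNA of islet endocrine cells, was the most abundant entry in 5 of the 6 libraries, at 136424 to 346480 RPM in those 5. The library nid-sEV 1 stood apart: its most abundant entry had no miRBase name, and 33.5% of its reads fell on such entries against 6.61% to 9.46% in the others. Ratios without it are therefore given for each of the 8 arms. Of the markers of other cell types, the blood sum and the liver miRNA did not overlap between the groups. The 5 blood cell miRNAs summed to 4462 to 9051 RPM in nid-sEVs and 389 to 1537 RPM in aid-sEVs. Taken singly, miR-144-3p overlapped, at 19.8 to 1370 RPM in nid-sEVs and 8.18 to 88.6 RPM in aid-sEVs. miR-223-3p overlapped as well, and was at 0 in 1 nid-sEV and 2 aid-sEV libraries. The liver miRNA miR-122-5p stood at 396 to 3000 RPM in nid-sEVs and at 24.5 to 42.6 RPM in aid-sEVs. As sums the other sets overlapped, the 3 exocrine miRNAs at 2533 to 8997 RPM in nid-sEVs and 698 to 3370 RPM in aid-sEVs. Within the mesenchymal set, miR-145a-5p taken singly did not overlap, at 381 to 396 RPM in nid-sEVs and 98.1 to 225 RPM in aid-sEVs. Summed mesenchymal miRNAs were at 5383 to 24080 RPM in nid-sEVs and 4480 to 11623 RPM in aid-sEVs, with miR-214-3p at 0 in 1 nid-sEV and 2 aid-sEV libraries, and the endothelial pair at 989 to 3717 RPM and 679 to 1325 RPM. The 4 endocrine miRNAs were at 74718 to 360886 RPM and 164821 to 186134 RPM. The part of these markers in the let-7 values was not tested. In bulk vesicle RNA, more vesicles from a cell type and more copies per vesicle cannot be told apart.

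As a family, the let-7 5p arms took a larger part of the aid-sEV reads. Summed levels of 82345, 85030 and 87684 RPM were found in nid-sEVs, and of 252666, 289615 and 208897 RPM in aid-sEVs. Every aid-sEV library lay above every nid-sEV library. The group means were 85019 ± 2669 RPM and 250392 ± 40407 RPM (SD, n = 3 each), a ratio of 2.95, or 2.90 without nid-sEV 1. In other words, let-7 5p arms made up 8.23%, 8.50% and 8.77% of the counted reads in nid-sEVs and 25.3%, 29.0% and 20.9% in aid-sEVs. Over reads with a miRBase name alone, they were 12.4%, 9.41% and 9.69% in nid-sEVs against 27.4%, 31.0% and 23.0% in aid-sEVs, a ratio of 2.59. The family sum in RPM varied less between nid-sEV libraries (coefficient of variation 3.14%) than any single arm did, at 13.9% to 59.2%. As a share of reads with a miRBase name, however, the sum had a coefficient of variation of 15.6% in nid-sEVs. In aid-sEVs the sum in RPM did not vary less than every arm, at 16.1% for the sum and 6.94% to 19.9% for the arms.

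**Figure D1:**
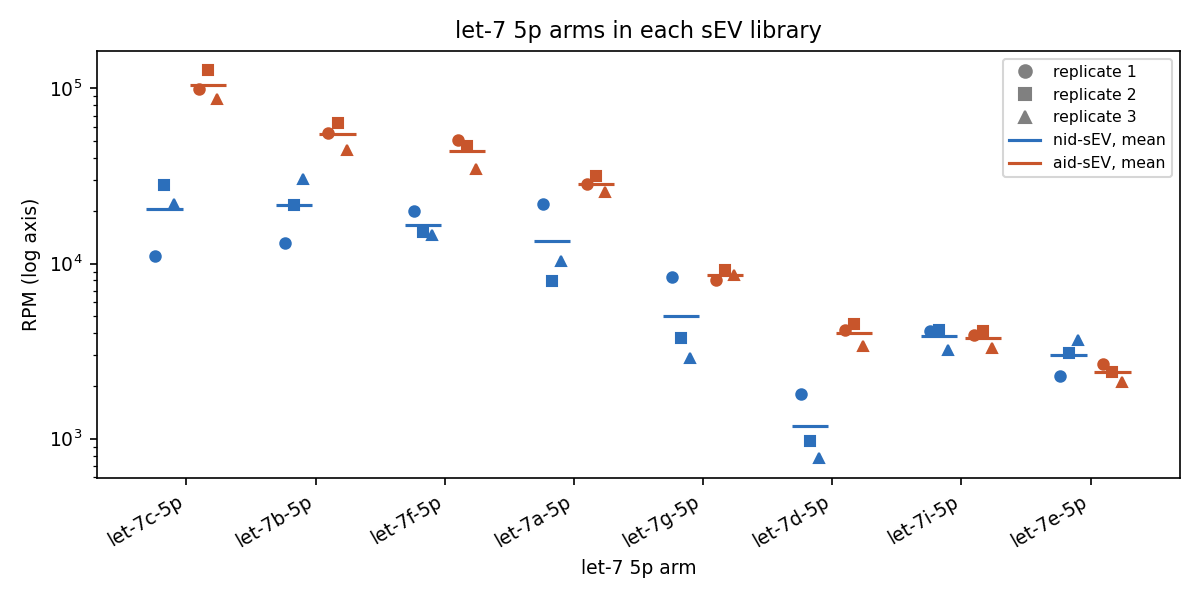
Level of each let-7 5p arm in RPM (log axis) in the nid-sEV (blue) and aid-sEV (orange) libraries, with 1 point a library and a line at the group mean. let-7a-5p, let-7b-5p, let-7c-5p, let-7d-5p and let-7f-5p have every orange point above every blue point, whereas let-7g-5p, let-7i-5p and let-7e-5p overlap.

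let-7c-5p and let-7b-5p, made in part from the same transcript on chromosome 15, were the most abundant arms of aid-sEVs. let-7c-5p stood at 10972, 28216 and 21985 RPM in nid-sEVs and at 98730, 127150 and 86753 RPM in aid-sEVs. Its lowest aid-sEV library was 3.07 times its highest nid-sEV library. The means were 20391 ± 8732 and 104211 ± 20749 RPM (SD, n = 3 each), a ratio of 5.11 and a log2 difference of 2.44 (SE 0.40) on the log2(RPM + 1) scale. Without nid-sEV 1, which had the lowest level, the ratio was 4.15. let-7c-5p ranked 22nd, 9th and 10th among all entries in the nid-sEV libraries and 2nd, after miR-375-3p, in each aid-sEV library. let-7b-5p was at 13093, 21608 and 30257 RPM in nid-sEVs and at 55983, 63757 and 44755 RPM in aid-sEVs. Again nid-sEV 1 was lowest and the groups did not overlap. The means were 21653 ± 8582 and 54832 ± 9553 RPM (SD, n = 3 each), a ratio of 2.53 (2.11 without nid-sEV 1) and a log2 difference of 1.41 (SE 0.36). Together the pair differed 3.78-fold, and the other 6 arms 2.13-fold. Without nid-sEV 1 these sums lay closer, at 3.12-fold for the pair and 2.59-fold for the other 6 arms.

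let-7a-5p, let-7f-5p and let-7d-5p, which share the transcript on chromosome 13, were likewise higher in every aid-sEV library. let-7f-5p was measured at 19915, 15212 and 14485 RPM in nid-sEVs and at 50736, 46737 and 34490 RPM in aid-sEVs. It had the smallest SE of the 8 arms, with means of 16537 ± 2947 and 43988 ± 8465 RPM (SD, n = 3 each), a ratio of 2.66 (2.96 without nid-sEV 1) and a log2 difference of 1.41 (SE 0.27). let-7a-5p was at 21742, 7994 and 10389 RPM in nid-sEVs and at 28509, 31745 and 25502 RPM in aid-sEVs. Here nid-sEV 1 was the highest nid-sEV library, and its counting interval (20961 to 22552 RPM, 95% Wilson) lay just below that of the lowest aid-sEV library (24633 to 26400 RPM). The means of let-7a-5p were 13375 ± 7344 and 28585 ± 3122 RPM (SD, n = 3 each), a ratio of 2.14 that became 3.11 without nid-sEV 1. Its log2 difference was 1.23 (SE 0.41). let-7d-5p, the least abundant arm of nid-sEVs, had 1804, 975 and 772 RPM there, from 233, 64 and 39 reads, and 4157, 4517 and 3394 RPM in aid-sEVs. Although low, it showed the second largest ratio among the 8 arms, 3.40, with means of 1183 ± 547 and 4023 ± 573 RPM (SD, n = 3 each) and a log2 difference of 1.85 (SE 0.44). Without nid-sEV 1 its ratio of 4.61 was the largest among the 8 arms, above the 4.15 of let-7c-5p. Summed, let-7a-5p, let-7f-5p and let-7d-5p differed 2.46-fold, or 3.07-fold without nid-sEV 1.

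let-7g-5p, let-7i-5p and let-7e-5p, each from a hairpin of its own away from the other let-7 hairpins, did not separate the groups. let-7g-5p was at 8424, 3761 and 2889 RPM in nid-sEVs and at 8005, 9198 and 8580 RPM in aid-sEVs. Only nid-sEV 1 reached the aid-sEV level. With it the means were 5025 ± 2976 and 8594 ± 597 RPM (SD, n = 3 each), a ratio of 1.71 and a log2 difference of 0.93 (SE 0.45), and without it the ratio was 2.58. let-7i-5p was measured at 4104, 4188 and 3226 RPM in nid-sEVs and 3884, 4094 and 3304 RPM in aid-sEVs. Its ratio was 0.980 (1.01 without nid-sEV 1) and its log2 difference -0.026 (SE 0.30). The sign of the latter was not settled, being above 0 in 5 of 14 alternative settings, with 0.47 when RPM were divided by trimmed-mean (TMM) factors. let-7e-5p was at 2292, 3076 and 3681 RPM in nid-sEVs and at 2661, 2416 and 2118 RPM in aid-sEVs. The groups of let-7e-5p overlapped through nid-sEV 1, and its ratio was 0.795 (0.710 without that library). The log2 difference of let-7e-5p was -0.31 (SE 0.34), and with TMM factors it was 0.19.

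By limma over all 718 entries (adjusted p under 0.05 and a log2 difference above 1), 4 of the 8 arms were called higher in aid-sEVs, let-7b-5p, let-7c-5p, let-7d-5p and let-7f-5p, where 15.6% of all entries were. In 5 of the 8, with let-7a-5p added, every aid-sEV library lay above every nid-sEV library, as in 24.2% of all entries. Since the arms were chosen with this contrast known, nothing is read from these counts. The count of called arms depended on single libraries, and so did the count over all 718 entries. Without nid-sEV 1, 6 arms were called higher, beside 150 entries. There were 2 without nid-sEV 3, beside 61 entries, and 2 without aid-sEV 3, beside 129. Only 1 was called without nid-sEV 2, beside 33 entries, without aid-sEV 1, beside 94, or without aid-sEV 2, beside 95. The median log2 difference of the 8 arms was 1.32, beside 1.11 over all entries and -0.21 over the 219 entries with reads in every library. TMM factors moved these 3 medians to 1.81, 1.43 and 0.29. With a pseudocount of 0.1 the median over all entries was 1.78, and with 10 it was 0.39, while that of the 8 arms stayed at 1.32. Entries with 0 reads numbered 229 to 417 in the nid-sEV libraries and 89 to 159 in the aid-sEV libraries. The part of these zeros in the median over all entries was not tested. nid-sEV 1 and aid-sEV 3 had nearly the same total of counted reads. Between them let-7c-5p differed 7.91-fold, let-7b-5p 3.42-fold, let-7d-5p 1.88-fold and let-7f-5p 1.73-fold. Between the same libraries the ratios of let-7a-5p and let-7g-5p were 1.17 and 1.02, and those of let-7e-5p and let-7i-5p 0.924 and 0.805.

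**Figure D2:**
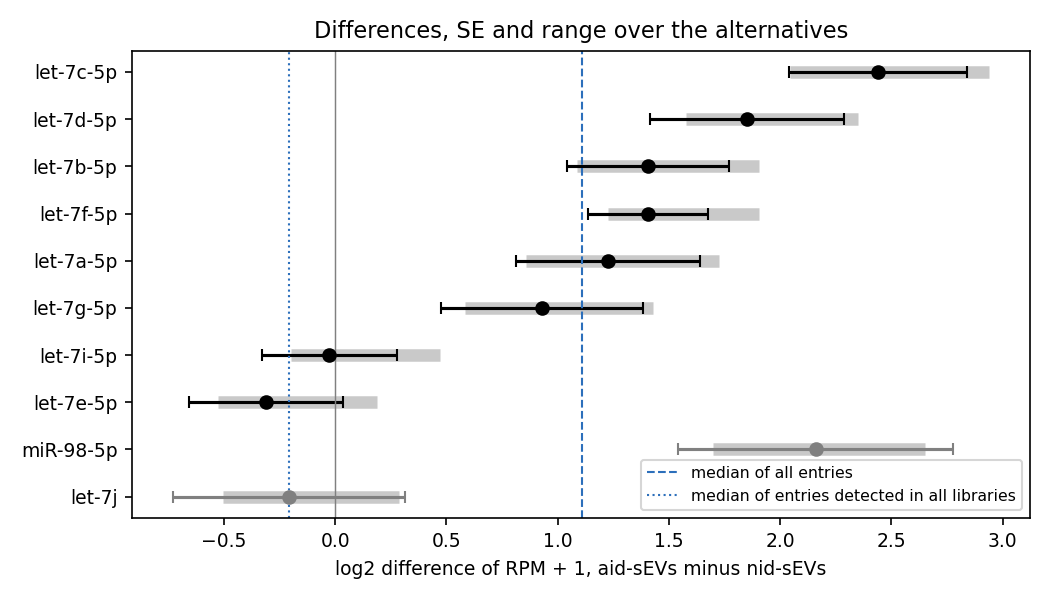
Log2 difference of RPM + 1, aid-sEVs minus nid-sEVs, for the 8 let-7 5p arms (black) and for miR-98-5p and let-7j (grey). Bars are the SE, shaded bands the range over the alternative settings, and blue lines the medians of all entries (1.11) and of the 219 entries with reads in every library (-0.21). let-7c-5p lies at 2.44, and the bands of let-7e-5p and let-7i-5p cross 0.

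The make-up of the family also differed. let-7c-5p supplied 13.3%, 33.2% and 25.1% of the let-7 5p reads in nid-sEVs and 39.1%, 43.9% and 41.5% in aid-sEVs, without overlap. let-7i-5p went the other way, at 4.98%, 4.92% and 3.68% in nid-sEVs and 1.54%, 1.41% and 1.58% in aid-sEVs, and so did let-7e-5p, at 2.78%, 3.62% and 4.20% against 1.05%, 0.834% and 1.01%. These shares sum to a fixed total, so a larger share of let-7c-5p lowers the others. The shares of let-7b-5p (15.9%, 25.4% and 34.5% against 22.2%, 22.0% and 21.4%) and let-7f-5p (24.2%, 17.9% and 16.5% against 20.1%, 16.1% and 16.5%) overlapped. So did those of let-7a-5p (26.4%, 9.40% and 11.8% against 11.3%, 11.0% and 12.2%), with nid-sEV 1 far above the rest. let-7d-5p stayed at 0.880% to 2.19% in every library, and let-7g-5p at 3.17% to 10.2%, with its highest share in nid-sEV 1. The aid-sEV libraries resembled each other closely, while nid-sEV 1 held more let-7a-5p, let-7f-5p and let-7g-5p and less let-7b-5p and let-7c-5p than nid-sEV 2 and nid-sEV 3.

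**Figure D3:**
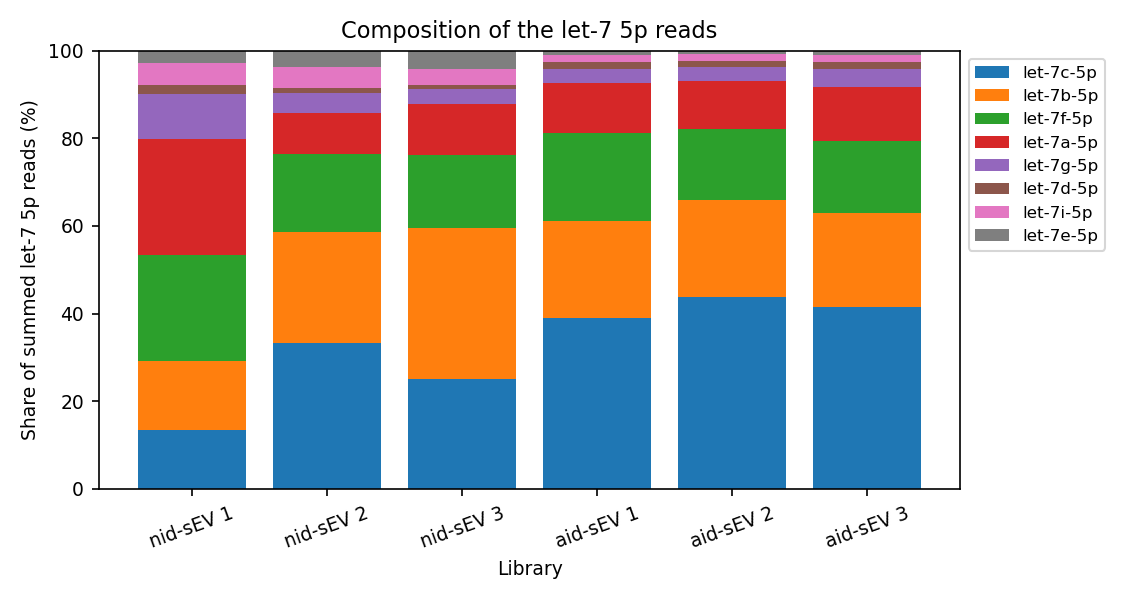
Share of each let-7 5p arm in the summed let-7 5p reads (percent) of each library. let-7c-5p, at the base of each bar, takes 39.1% to 43.9% in aid-sEVs and 13.3% to 33.2% in nid-sEVs.

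The order of the arms was the same in all 3 aid-sEV libraries, let-7c, b, f, a, g, d, i and e from high to low. Of the neighbours in this order, let-7b-5p and let-7f-5p overlapped in range, as did let-7d-5p and let-7i-5p, and the others did not. By mean level the order in nid-sEVs was let-7b, c, f, a, g, i, e and d. Of the neighbours in the nid-sEV order, only let-7e-5p and let-7d-5p had ranges that did not overlap. let-7g-5p lay above let-7i-5p in only 1 nid-sEV library. let-7d-5p thus moved from the last place to the sixth.

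Ratios between arms that differ by 1 base need no library total. The ratio of let-7c-5p to let-7b-5p was 0.838, 1.31 and 0.727 in nid-sEVs and 1.76, 1.99 and 1.94 in aid-sEVs, without overlap. let-7e-5p to let-7a-5p gave 0.105, 0.385 and 0.354 in nid-sEVs and 0.0933, 0.0761 and 0.0831 in aid-sEVs, also without overlap, although nid-sEV 1 came close to the aid-sEV values. In contrast, let-7c-5p to let-7a-5p (0.505, 3.53 and 2.12 against 3.46, 4.01 and 3.40) and let-7f-5p to let-7a-5p (0.916, 1.90 and 1.39 against 1.78, 1.47 and 1.35) overlapped. The aid-sEV ratios were close together in each of the 4 pairs, and nid-sEV 1 set the width of the nid-sEV range in the 3 pairs with let-7a-5p.

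**Figure D4:**
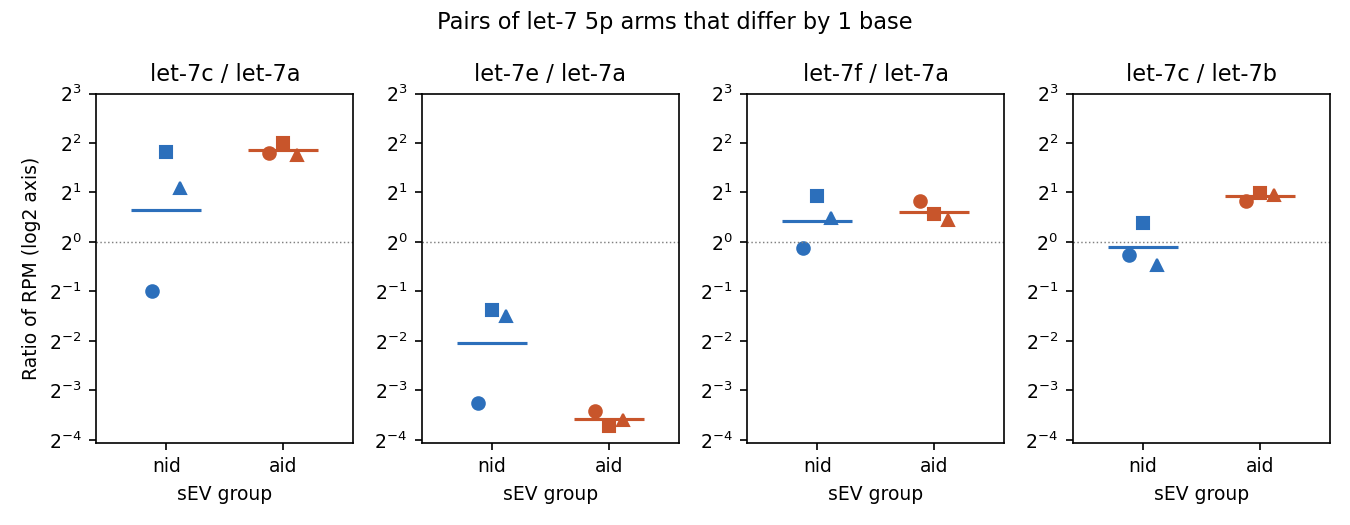
Ratio of RPM (log2 axis) between let-7 5p arms that differ by 1 base, in nid-sEVs (blue) and aid-sEVs (orange). Circles, squares and triangles are replicates 1, 2 and 3, and lines are geometric means. The aid-sEV points of let-7c over let-7b, at 1.76 to 1.99, all lie above the nid-sEV points.

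The close relatives of the 8 arms were not in the list by which these were chosen. miR-98-5p has the let-7 seed, differs from let-7a-5p by G11A and A19U, and comes from the hairpin 785 bases from Mirlet7f-2. let-7j is named as a family member, but RefSeq gives it 24 bases with G8U inside the seed window. Both are shown for comparison with the sequences above.
miR-98-5p: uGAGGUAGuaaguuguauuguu
let-7j: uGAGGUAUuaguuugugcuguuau
miR-98-5p was at 217, 60.9 and 119 RPM in nid-sEVs, from 28, 4 and 6 reads, and at 447, 576 and 556 RPM in aid-sEVs. The groups did not overlap, with means of 132 ± 78.8 and 526 ± 69.7 RPM (SD, n = 3 each) and a ratio of 3.98. Its log2 difference of 2.16 (SE 0.62) missed the threshold with an adjusted p of 0.065 by limma, as it did by edgeR (adjusted p 0.11), and it passed with DESeq2 (adjusted p 0.036) and in limma without nid-sEV 1, where the ratio was 5.86. let-7j was at 534, 274 and 237 RPM in nid-sEVs and at 298, 250 and 303 RPM in aid-sEVs, with a log2 difference of -0.21 (SE 0.52, adjusted p 0.83 by limma). The sign of this difference turned with TMM factors (0.29) and without nid-sEV 1 (0.15). Of 11 RefSeq mature miRNAs with the let-7 seed, 9 were in the table, the 8 arms and miR-98-5p.

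The 3p arms are the opposite strand of the same hairpins and are mostly degraded, and here they were far below the 5p arms. Of the 10 relatives, comprising miR-98-5p, let-7j, 7 let-7 3p arms and miR-98-3p, none was called by limma in either direction, against 17.4% of all entries, and 1, miR-98-5p, had an unadjusted p under 0.05. edgeR called 0 of the 4 it tested, with 2 at an unadjusted p under 0.05, beside 48 higher and 21 lower of 245 entries. DESeq2 called 1 of 7, beside 65 higher and 50 lower of 478 entries. Without nid-sEV 1, limma called 3, miR-98-5p, miR-98-3p and let-7c-2-3p, beside 150 higher and 26 lower of 718 entries. Of these, miR-98-3p and let-7c-2-3p had 0 reads in both remaining nid-sEV libraries, which were the shallowest. The aid-sEV levels of miR-98-3p, 16.4 to 25.0 RPM, were below 3 reads in those libraries (45.7 and 59.4 RPM). The sequence of let-7c-2-3p had 9 and 3 reads there under the name let-7a-1-3p. The groups did not overlap in 3 of the 10, miR-98-5p, let-7b-3p and let-7d-3p, all with higher aid-sEV values. Of all entries, 31.8% did not overlap in either direction, and 24.2% did not overlap with higher aid-sEV values. In 7 of the 10, every nid-sEV library had fewer than 10 reads, so only large differences were detectable.

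let-7d-3p, the most abundant 3p arm, was at 163, 91.4 and 317 RPM in nid-sEVs and at 426, 429 and 352 RPM in aid-sEVs. Its log2 difference was 1.25 (SE 0.61, adjusted p 0.22 by limma). The ratio of let-7d-5p to let-7d-3p was 11.1, 10.7 and 2.44 in nid-sEVs and 9.77, 10.5 and 9.65 in aid-sEVs, so 5 libraries lay close together and nid-sEV 3 stood apart with 16 reads of the 3p arm and 39 of the 5p arm. let-7b-3p had 4, 3 and 2 reads in nid-sEVs (31.0, 45.7 and 39.6 RPM) and 98.2, 170 and 81.8 RPM in aid-sEVs, with a log2 difference of 1.51 (SE 0.64, adjusted p 0.19 by limma). The ratio of let-7b-5p to let-7b-3p was 423, 473 and 765 in nid-sEVs and 570, 374 and 547 in aid-sEVs. For both arms of these hairpins every aid-sEV library lay above every nid-sEV library, while the ratio of the arms overlapped between the groups. Summed over the 3p arms, miR-98-3p included, the level was 256, 320 and 416 RPM in nid-sEVs and 701, 690 and 515 RPM in aid-sEVs.

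let-7a-1-3p and let-7c-2-3p were listed as separate entries, but RefSeq gives them one sequence, shown here because it decides how their reads can be used.
let-7a-1-3p: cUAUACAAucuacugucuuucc
let-7c-2-3p: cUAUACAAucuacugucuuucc
let-7a-1-3p had 0, 9 and 3 reads in nid-sEVs and 0, 14 and 0 in aid-sEVs. let-7c-2-3p had 4, 0 and 0 reads in nid-sEVs and 65, 6 and 4 in aid-sEVs. Except in aid-sEV 2, each library had reads under 1 of the names and none under the other. The values of either name alone are therefore not a level of its hairpin. Their sum was 31.0, 137 and 59.4 RPM in nid-sEVs and 125, 56.8 and 32.7 RPM in aid-sEVs, with means of 75.8 ± 54.9 and 71.6 ± 48.0 RPM (SD, n = 3 each) that differed by less than the spread of the libraries.

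**Figure D5:**
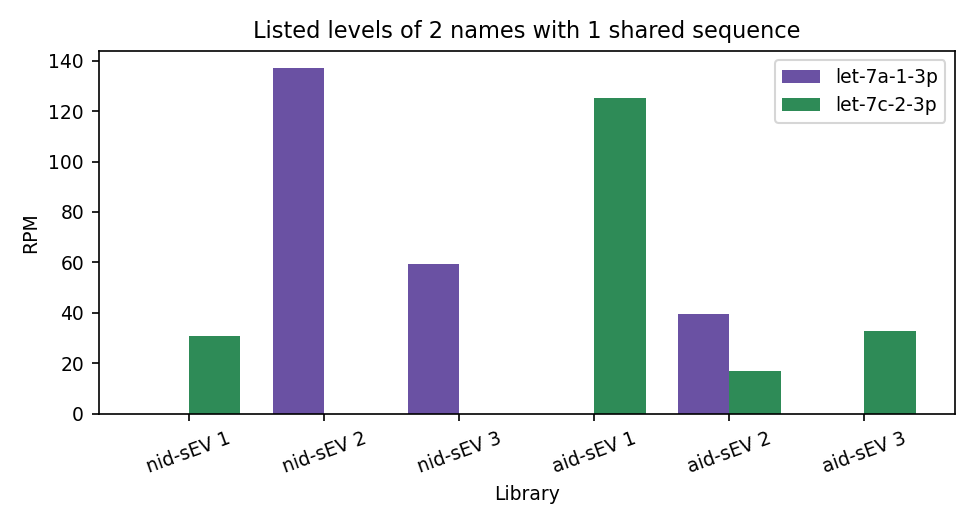
RPM listed in each library under let-7a-1-3p (purple) and let-7c-2-3p (green), which are identical in sequence. Both names have reads only in aid-sEV 2.

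The remaining 3p arms, let-7e-3p, let-7f-1-3p, let-7i-3p and miR-98-3p, had at most 3 reads in every nid-sEV library and at most 13 in any aid-sEV library.

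The miRNAs made from hairpins beside Mirlet7c-1, Mirlet7a-2 and Mirlet7e, of the miR-99, miR-100 and miR-125 families, are the genomic partners of the family. Of their 9 listed arms, limma called none in either direction, beside 17.4% of all entries. The groups did not overlap in 3 of the 9, miR-100-5p, miR-125b-5p and miR-99b-3p, all with lower aid-sEV values. Of all entries, 31.8% did not overlap in either direction, most of them with higher aid-sEV values (24.2% of all entries). miR-100-5p, from the cluster of Mirlet7a-2, was at 10685, 5710 and 3681 RPM in nid-sEVs and at 2453, 1445 and 2495 RPM in aid-sEVs, lower in every aid-sEV library (log2 difference -1.56, SE 0.50, adjusted p 0.090 by limma). miR-125b-5p had means of 4838 ± 1273 and 2937 ± 773 RPM, and miR-99b-3p of 105 ± 29.2 and 41.5 ± 14.1 RPM (SD, n = 3 each), with adjusted p of 0.24 and 0.22 by limma. miR-99a-5p, the neighbour of let-7c-5p on chromosome 16, had means of 10441 ± 6372 and 6427 ± 1169 RPM (SD, n = 3 each), which overlapped. miR-125a-5p, beside let-7e-5p, had means of 8147 ± 4470 and 8095 ± 726 RPM (SD, n = 3 each), which also overlapped.

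The entries whose profile over the 6 libraries was most like that of the summed let-7 5p arms were miR-7b-5p, miR-382-5p, miR-134-5p, miR-335-3p and miR-700-3p. Likeness was measured as the root mean square difference of log2(RPM + 1), each profile centred on its own mean, among 178 entries with reads in every library and a mean of at least 100 RPM. The values were 0.218, 0.252, 0.289, 0.328 and 0.340, where the median entry had 1.26. miR-7b-5p, which is abundant in endocrine cells, was at 3933, 3578 and 3740 RPM in nid-sEVs and at 11764, 14825 and 13798 RPM in aid-sEVs. The other endocrine markers, miR-375-3p, miR-7a-5p and miR-184-3p, did not share this difference. Their groups overlapped, with log2 differences of 0.08, -0.14 and -0.64. Among the 8 arms themselves, let-7f-5p (0.207) and let-7b-5p (0.333) followed the summed profile most closely, and let-7i-5p (0.800) and let-7e-5p (0.950) least. The libraries share their depth and scaling, so these values describe the profiles only.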

How the data were processed

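Small RNA of sEVs was sequenced on an Illumina NovaSeq in 3 nid-sEV and 3 aid-sEV libraries, grouped by the labels. The submitters' processing notes name fastp 0.23.0, HISAT2 2.2.1 and GRCm38, and the miRNA reference, counter and mismatch limit are not given in the sources used here. The deposited table holds RPM, each library's reads scaled by the authors to the same total of 1000000. It also holds the authors' own comparison (log fold change, log CPM, p and FDR), which was not used. Whole reads were recovered from the RPM steps: 100% of values were whole within 0.001 reads. Every entry had reads in at least 2 libraries.

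The main test was limma 3.58.1 (R 4.3.3) on log2(RPM + 1) over 718 entries, with group as the only term and Benjamini-Hochberg adjustment. Alternatives were other pseudocounts, a minimum mean RPM of 10, edgeR 4.0.16 TMM factors, named entries only, a replicate block, each library left out, and edgeR and DESeq2 1.42.0 on recovered reads. The code of the fit was checked on simulated reads with a fixed spread and without a library like nid-sEV 1. That check does not bear on how reliable the calls in these libraries are. Intervals (Wilson, 95%) cover counting error only, and 3 reads, taken as the limit that a count of 0 allows, ranged from 5.78 to 59.4 RPM over the libraries. Sequences matched RefSeq by name for 18 miRNAs. The members and lists were chosen with earlier results of these data known. Named were the 8 members, their listed relatives, miRNAs from neighbouring hairpins, marker miRNAs as sums or singly, and the 5 most similar profiles. let-7k was not analysed here.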

Additional observations from a re-analysis of the deposited data

How the results depend on the processing

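The 112 entries called higher in aid-sEVs became 62 with a pseudocount of 10, 69 with the minimum mean RPM, 48 with edgeR, 65 with DESeq2 and 33 to 150 with 1 library left out. The 13 called lower became 8 with a pseudocount of 0.1, 9 with a pseudocount of 10 or the minimum mean RPM, 3 with TMM, 21 with edgeR, 50 with DESeq2 and 1 to 26 with 1 library left out. Of the 8 let-7 5p arms, limma called 4, edgeR 1, and 1 to 6 were called with 1 library left out. Of the relatives, DESeq2 called 1, and 0 to 3 were called with 1 library left out. The 3, without nid-sEV 1, included miR-98-3p and let-7c-2-3p, which had 0 reads in both remaining nid-sEV libraries. The log2 difference of the summed arms, 1.55, was 2.04 with TMM and 1.37 over named entries, and 1.43 to 1.67 with 1 library left out. edgeR, DESeq2, the minimum mean RPM and the block give no value for a sum. Over the alternatives let-7c-5p ranged from 2.05 to 2.94 and was called in 13 of 14, let-7f-5p from 1.23 to 1.90 (called in 8), let-7d-5p from 1.58 to 2.35 (6), let-7b-5p from 1.09 to 1.91 (5), let-7a-5p from 0.86 to 1.72 (1) and let-7g-5p from 0.58 to 1.43 (1). The sign turned for let-7f-1-3p (-0.072 without aid-sEV 1, up to 2.05 with another library left out), let-7i-3p (0.88 with a pseudocount of 0.1, 0.35 with TMM, 1.78 without nid-sEV 2 and 0.83 without aid-sEV 3, down to -0.99 with another library left out) and let-7j (0.29 with TMM, 0.15 without nid-sEV 1, down to -0.44 without nid-sEV 3), and the cause was not tested. With the replicate block 0 entries were called in either direction, none of the 8 arms and none of the relatives, but same-numbered libraries did not deviate together (correlations -0.053, 0.058 and -0.051), so the numbers were not taken as pairs. The shallowest libraries were nid-sEV 2 and nid-sEV 3, which limits the low 3p arms.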
